A study of Homo sapiens with 16 samples.

Results

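Complex I, NADH:ubiquinone oxidoreductase, takes electrons from NADH and passes them to ubiquinone at the start of the mitochondrial respiratory chain. The genes described here are its nuclear-encoded subunits and the assembly factors that carry the NDUFAF name. They were chosen as every symbol that begins with NDUF, a class letter (A, B, C, S, V or AF) and a digit. Symbols were those of the platform annotation, replaced by RefSeq's symbol where the gene identifier was found there. For each gene the probe set with the highest mean over the 16 arrays was used. The rule found 43 of 19775 genes, namely 32 subunits, 8 NDUFAF assembly factors and 3 noncoding RNAs whose symbols start with a subunit's name. NDUFS5, NDUFS8 and NDUFC2 lie only on probe sets that name several genes and were not analysed here. NDUFA4 and NDUFA4L2 carry the symbols COXFA4 and COXFA4L2 after this replacement of symbols and so fall outside the rule.

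The study set 2 human mammary cell lines against 2-deoxyglucose (2DG), a glucose analogue that is taken up and phosphorylated but hardly metabolised further. MCF10A is an immortalized mammary epithelial line that is not tumorigenic. The breast cancer line MDA-MB-231 has mesenchymal character. Both were seeded sparsely in DMEM/F12 with 17.5 mM D-glucose and given 50 mM 2DG, or water as vehicle, for 24 h, with 4 biological replicates per group and 16 arrays in all. The media differed between the lines: horse serum, insulin, EGF, cholera toxin and hydrocortisone for MCF10A and fetal bovine serum for MDA-MB-231, so line and medium cannot be told apart.

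Complex I is L-shaped. Its matrix arm holds the N module, which oxidises NADH at a flavin, and the Q module, which reduces ubiquinone; its membrane arm pumps protons and is divided into modules named after the mitochondrially encoded subunits ND1, ND2, ND4 and ND5. The core subunits do the chemistry and the accessory subunits surround and stabilise them. Assembly factors bind the intermediates while the modules are built and joined, and are not found in the finished enzyme.

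Values are deposited RMA levels on the log2 scale, so a difference of 1 is a doubling in RMA signal. A gene was called where limma, fitted to all 19775 genes on the 16 arrays, gave a two-sided Benjamini-Hochberg adjusted p under 0.05. The median SD of a gene within a group was 0.0759 to 0.0858, and the number of arrays limits the precision. In bulk RNA, fewer cells of a type and less RNA per cell cannot be told apart. Of the markers of MCF10A, KRT5, KRT14, CDH1 and CDH3 read 12.23 to 13.63 there and 4.62 to 7.1 in MDA-MB-231; ZEB1 and CDH11 were higher in MDA-MB-231, VIM was high in both, and SPARC, listed for MDA-MB-231, was higher in MCF10A. The 3′ minus 5′ difference of the actin control probe sets, which grows as RNA is shortened, was 0.34 to 0.49 on MCF10A vehicle arrays and 0.5 to 0.65 with 2DG. Among the MDA-MB-231 arrays it was 0.38 to 0.47 on vehicle replicates A, C and D, 1.09 on vehicle replicate B, and 0.97 to 1.13 after 2DG.

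After 2DG, complex I genes were lower more often than higher in both lines, and in MCF10A the median change of the assembly factors was lower than that of the subunits. There, 7 of 8 NDUFAF genes fell and 1 rose, with a median change of -0.89, and 21 of 32 subunits fell and 4 rose, with a median of -0.19. Over all genes, 25.2 percent were called lower and 29 percent higher (54.2 percent either way), with a median of 0.02. In MDA-MB-231, 23 of 32 subunits fell and 2 rose (median -0.27), while 4 of 8 assembly factors fell and 2 rose (median -0.21). Over the 5 assembly factors that keep a probe set when shared ones are left out, the median was -0.095. That median is the value of a dim probe set of NDUFAF8 that was not called. The shares over all genes in MDA-MB-231 were 25.4 percent lower and 25.5 percent higher (50.9 percent either way), with a median of 0.03. The assembly factors that rose were NDUFAF7 in MCF10A, and NDUFAF4 and NDUFAF7 in MDA-MB-231. In each case dimmer probe sets of the same gene were called lower in that line, so these rises depend on the probe set. Falls of at least 1 were called for 2 subunits and 2 assembly factors in MCF10A (5.81 percent of all genes) and for 1 subunit and 2 assembly factors in MDA-MB-231 (4.73 percent of all genes). All 4 2DG arrays lay below all 4 vehicle arrays for 22 subunits and 7 assembly factors in MCF10A (24.2 percent of all genes) and for 23 and 4 in MDA-MB-231 (24 percent). They lay above for 4 subunits and 1 assembly factor in MCF10A (27.4 percent of all genes) and for 2 and 2 in MDA-MB-231 (22.9 percent). The actin 3′ minus 5′ difference moved with 2DG in both lines, and more in MDA-MB-231. With that difference as a covariate 30 of 40 coding members were called in MDA-MB-231, against 31 without it. Without vehicle replicate B of that line 31 were called. Apart from that replicate, the difference separates the vehicle arrays (0.38 to 0.47) from the 2DG arrays (0.97 to 1.13). The covariate therefore cannot tell RNA shortening from 2DG in this line. In MCF10A the vehicle arrays (0.34 to 0.49) and the 2DG arrays (0.5 to 0.65) did not overlap either, so the same limit holds there. With the covariate the 2DG calls of NDUFA1 (0.14, adjusted p = 0.0507) and NDUFB6 (-0.15, adjusted p = 0.0863) in MDA-MB-231 were lost and that of NDUFA2 (-0.13, adjusted p = 0.0327) was gained.

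**Figure D1:**
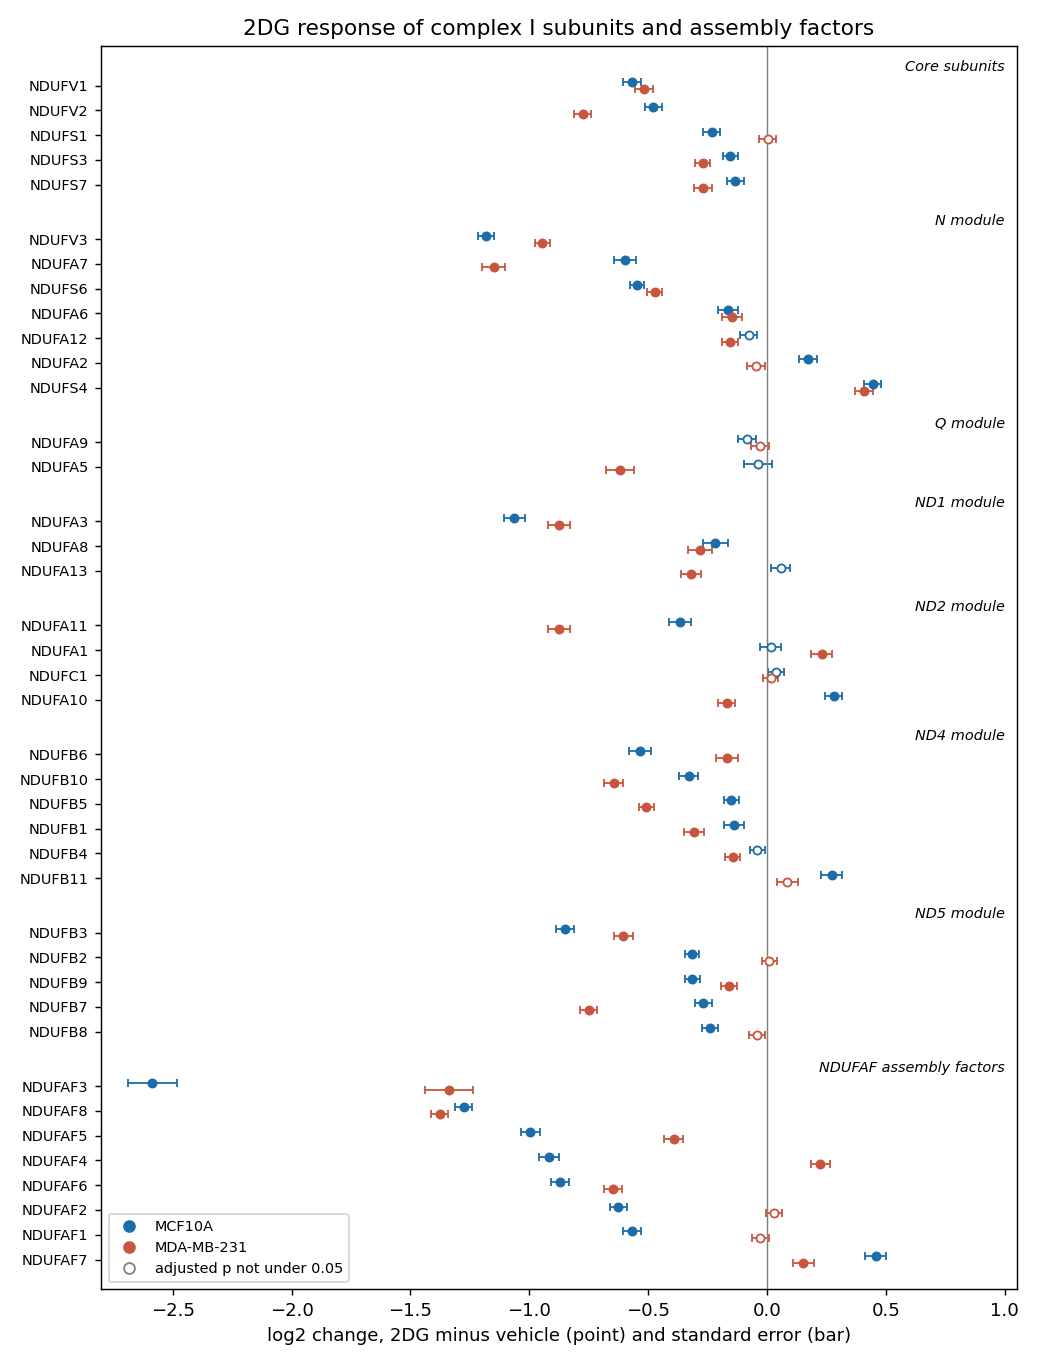
Change after 2DG (2DG minus vehicle, log2) of each subunit and NDUFAF assembly factor in MCF10A and in MDA-MB-231, from the limma fit over 16 arrays with 4 per group. In MCF10A the assembly factors lie mostly below the subunits, down to -2.585 for NDUFAF3, and in MDA-MB-231 the classes overlap.

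Class means were also taken by array. Relative to the vehicle mean of the line, the mean of the 8 assembly factors stood at -0.96 to -0.83 on the 4 MCF10A 2DG arrays and at -0.455 to -0.37 on the 4 MDA-MB-231 2DG arrays. The mean of the 32 subunits stood at -0.25 to -0.23 and -0.36 to -0.29 on the same arrays. In MCF10A the assembly factors thus lay below the subunits by mean and by median. In MDA-MB-231 the order turned with the measure: the assembly factors were lower by the mean, and the subunits by the median (-0.27 against -0.21). The order by median also turned with the probe set rule in this line. With the mean of all probe sets the assembly factors were lower (-0.3121 against -0.2044). Without shared probe sets the subunits were lower (-0.185 against -0.095). Vehicle arrays stayed within 0.04 of their own mean for both classes.

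Promoter sequence is shown for 3 members that fell in both lines and hold a match to a searched motif. They were picked without a rule, to set their start regions beside the expression changes. The sequences are from RefSeq (GRCh38.p14), whose promoter table matched 37 of 40 coding members; NDUFAF6, NDUFB5 and NDUFB9 were not matched. Each is the 180 bases before a listed transcription start, on the gene's strand, and capitals mark a match to a searched motif. NDUFA3 lies at chr19:54102675-54102854 on the plus strand and holds at 2 places the NRF1 motif (GCGC, any base, then TGCGC), the element of nuclear respiratory factor 1; both matches are read on the strand opposite to the one shown. NDUFA11 lies at chr19:5903791-5903970 on the minus strand with 1 NRF1 match, read on the strand shown. NDUFAF8 lies at chr17:81239138-81239317 on the plus strand with the ETS motif CCGGAAG, the core bound by GABP and other ETS factors. For this gene 3 starts are listed, and the one with the most matches in the window is shown.
NDUFA3: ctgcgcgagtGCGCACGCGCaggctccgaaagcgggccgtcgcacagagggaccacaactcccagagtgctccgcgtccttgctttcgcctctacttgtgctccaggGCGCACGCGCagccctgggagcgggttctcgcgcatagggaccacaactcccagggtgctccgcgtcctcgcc
NDUFA11: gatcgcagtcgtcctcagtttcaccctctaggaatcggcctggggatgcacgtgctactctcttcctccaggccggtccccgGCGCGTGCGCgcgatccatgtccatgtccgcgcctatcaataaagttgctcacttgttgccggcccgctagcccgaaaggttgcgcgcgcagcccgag
NDUFAF8: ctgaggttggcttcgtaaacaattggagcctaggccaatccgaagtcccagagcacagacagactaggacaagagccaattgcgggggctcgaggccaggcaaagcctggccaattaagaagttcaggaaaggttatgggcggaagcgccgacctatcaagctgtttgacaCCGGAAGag

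Over windows from 250 bases before to 50 after the start, searched on both strands, the NRF1 motif was present for 7 of 37 members (18.9 percent) and for 6.98 percent of 27305 genes with a promoter in the table. The ETS motif was present for 7 of 37 members against 12.2 percent of all genes. AAGATGGCG, the core of the YY1 element, was present for 7 of 37 members (NDUFA6, NDUFA7, NDUFA9, NDUFAF8, NDUFB8, NDUFS4 and NDUFS7) against 2.14 percent of all genes. In those 7 genes the match lay between base 10 and base 34 after the start. These are matches of letters, and genes with a YY1 match moved both ways: NDUFAF8 and NDUFA7 fell while NDUFS4 rose. NDUFAF3 and NDUFV3, which fell in both lines, held none of these motifs. Whether the motifs bear on the changes was not tested.

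Among the assembly factors, NDUFAF3 and NDUFAF4 bind each other and act early on the Q module. NDUFAF3 read 10.27, 10.29, 10.36 and 10.26 on the MCF10A vehicle arrays and 7.57, 7.49, 8.15 and 7.63 after 2DG. In MDA-MB-231 it read 10.86, 10.88, 10.86 and 10.8 on vehicle and 9.46, 9.51, 9.46 and 9.62 with 2DG. The groups did not overlap in either line, and MCF10A 2DG replicate C stood above its 3 partners. NDUFAF3 fell by 2.585 (SE 0.102, adjusted p = 1.24e-12) in MCF10A; the change in MDA-MB-231 was -1.34 (adjusted p = 7.35e-09). The fall was smaller in MDA-MB-231 by 1.25 (SE 0.144, adjusted p = 1.75e-06).

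NDUFAF4, its partner, went in opposite directions in the lines. It read 11.58, 11.62, 11.66 and 11.62 on MCF10A vehicle arrays and 10.62, 10.7, 10.81 and 10.68 with 2DG, and it fell by 0.92 (SE 0.0414, adjusted p = 6.83e-12). In MDA-MB-231 it read 11.44, 11.46, 11.42 and 11.52 on vehicle and 11.71, 11.67, 11.64 and 11.72 with 2DG, a rise of 0.225 (adjusted p = 0.000191). The groups were apart in both lines and the responses differed by 1.14 (SE 0.0585, adjusted p = 1.19e-10). A dimmer probe set of NDUFAF4, with a mean level of 8.09, gave -0.52 in MCF10A and -0.14 (adjusted p = 0.0214) in MDA-MB-231, so the rise rests on the brighter probe set while the difference of 0.38 keeps its sign.

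NDUFAF5 hydroxylates the core subunit NDUFS7, and NDUFAF8 stabilises NDUFAF5. NDUFAF8 read 11.47, 11.44, 11.5 and 11.54 on MCF10A vehicle arrays and 10.2, 10.22, 10.26 and 10.17 after 2DG. In MDA-MB-231 it read 11.49, 11.51, 11.48 and 11.49 on vehicle and 10.1, 10.06, 10.11 and 10.19 with 2DG. Both lines thus started and ended near the same level. NDUFAF8 fell by 1.275 (SE 0.036, adjusted p = 1.95e-14) in MCF10A and by 1.38 (adjusted p = 2.04e-14) in MDA-MB-231, and the difference of -0.10 was not called (SE 0.0509, adjusted p = 0.12). These values come from a probe set of the shared (_s_at) class; the gene's 2 other probe sets were dim, with mean levels of 5.45 and 5.36, and were not called. NDUFAF5 read 10.25, 10.33, 10.26 and 10.34 on MCF10A vehicle arrays and 9.28, 9.36, 9.31 and 9.25 with 2DG, and in MDA-MB-231 10 to 10.02 on vehicle and 9.55 to 9.71 with 2DG. It fell by 0.995 in MCF10A (SE 0.0404, adjusted p = 1.8e-12) and by 0.39 in MDA-MB-231 (adjusted p = 3.1e-07), a response that differed by 0.60 (adjusted p = 1.8e-07). A second bright probe set gave -0.98 and -0.415.

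NDUFAF1 acts on the membrane arm with ACAD9 and ECSIT, and NDUFAF2, a relative of the subunit NDUFA12, acts late, when the N module joins. NDUFAF1 read 10.24, 10.26, 10.29 and 10.26 on MCF10A vehicle arrays and 9.67, 9.72, 9.73 and 9.66 with 2DG, and between 9.84 and 9.98 on all 8 MDA-MB-231 arrays. NDUFAF2 read 11.39, 11.4, 11.45 and 11.45 on MCF10A vehicle arrays and 10.83, 10.77, 10.77 and 10.82 with 2DG, and between 11.79 and 11.92 on the 8 MDA-MB-231 arrays. For both genes the MCF10A groups were apart and the MDA-MB-231 groups overlapped. NDUFAF1 fell by 0.57 in MCF10A (SE 0.0371, adjusted p = 8.08e-10) and stood at -0.03 in MDA-MB-231 (adjusted p = 0.589), a difference of 0.54 (adjusted p = 2.38e-07). NDUFAF2 fell by 0.625 in MCF10A (SE 0.0352, adjusted p = 1.16e-10) and stood at 0.03 in MDA-MB-231 (adjusted p = 0.528), a difference of 0.655 (adjusted p = 1.3e-08). Each is read by 1 probe set here; that of NDUFAF2 is of the shared (_s_at) class, so NDUFAF2 has no value when shared probe sets are left out.

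NDUFAF6 takes part in early assembly around ND1, and NDUFAF7 is a methyltransferase of the mitochondrial matrix. NDUFAF6 read 10.36, 10.32, 10.32 and 10.33 on MCF10A vehicle arrays and 9.46, 9.47, 9.5 and 9.42 with 2DG, and in MDA-MB-231 10.21 to 10.36 on vehicle and 9.62 to 9.7 with 2DG. It changed by -0.87 in MCF10A (adjusted p = 2.9e-12) and -0.65 in MDA-MB-231 (adjusted p = 1.78e-10), with a difference of 0.22 (SE 0.0518, adjusted p = 0.00189). A dimmer probe set, at a mean of 6.46, gave -0.78 and -1.09, and its difference of -0.31 was not called (adjusted p = 0.154). NDUFAF7 was the assembly factor called higher in both lines: it read 9.24, 9.12, 9.22 and 9.16 on MCF10A vehicle arrays and 9.67, 9.59, 9.74 and 9.57 with 2DG, and in MDA-MB-231 9.01 to 9.12 on vehicle and 9.15 to 9.24 with 2DG. The rises were 0.46 (SE 0.0446, adjusted p = 1.32e-07) and 0.15 (adjusted p = 0.00863), and the difference was -0.305 (adjusted p = 0.000695). The probe sets of NDUFAF7 did not give 1 direction. Its 2 dimmer probe sets, with mean levels of 7.63 and 7.61, gave -0.865 and -0.63 in MCF10A and -0.50 and -0.58 in MDA-MB-231, each called, so no direction is settled for this gene.

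**Figure D2:**
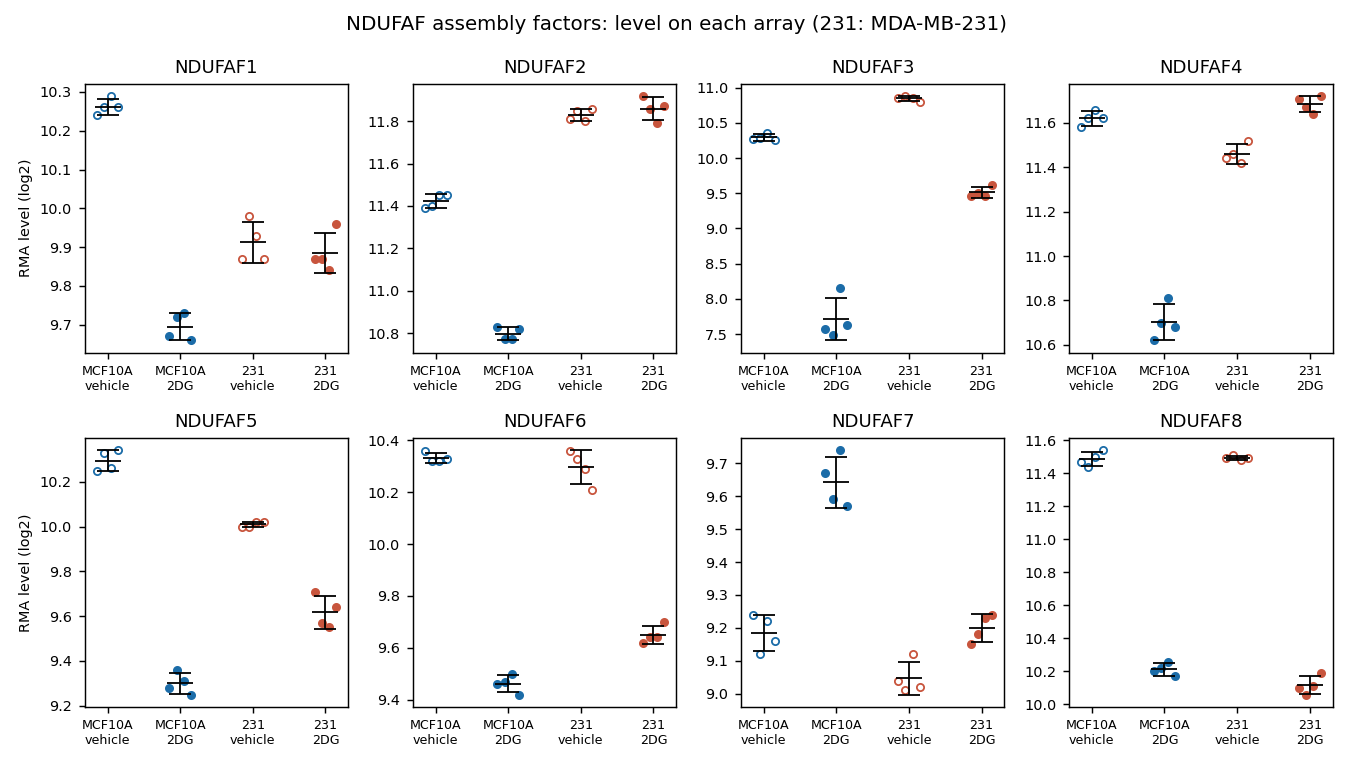
RMA level (log2) of each NDUFAF assembly factor on each of the 16 arrays; points are arrays, and bars give the mean and SD of 4 replicates. NDUFAF3 spans 7.49 to 10.88, NDUFAF8 drops alike in both lines, and NDUFAF1 and NDUFAF2 drop in MCF10A while their MDA-MB-231 groups overlap.

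**Figure D3:**
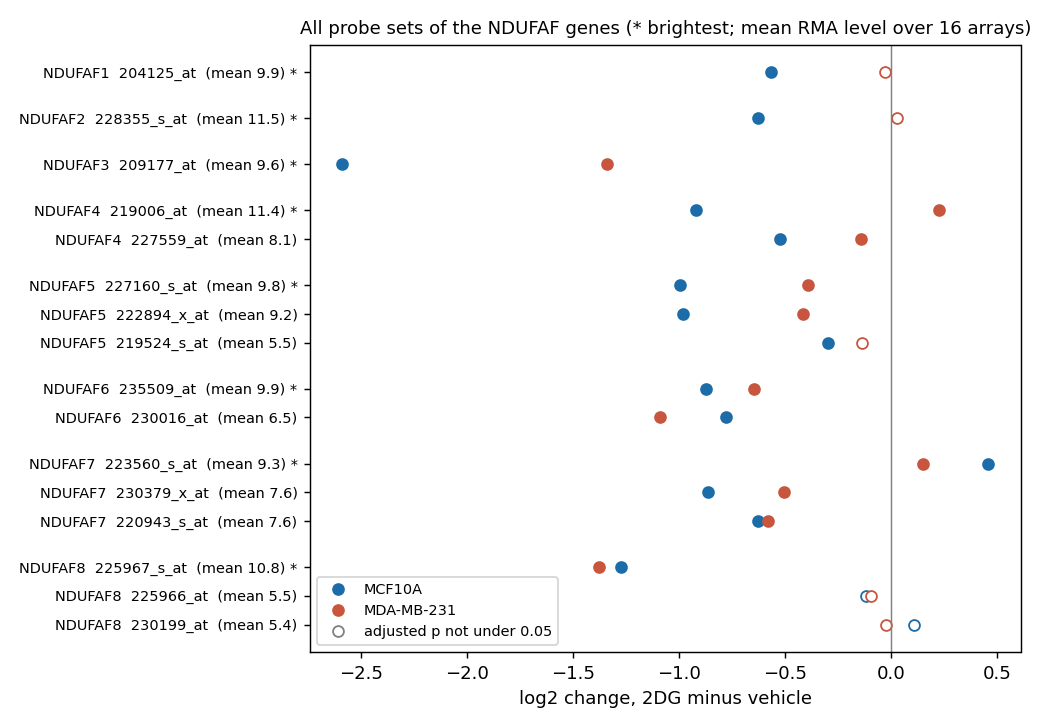
Change after 2DG (log2) of every probe set that names 1 NDUFAF gene, in each line, with the probe set used marked. The probe sets of NDUFAF7 lie on both sides of 0 in both lines, and those of NDUFAF5 lie on the same side.

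Of the nuclear-encoded core subunits, among which are those that hold the flavin and iron-sulfur clusters, 5 are described. In MCF10A all 5 of these fell (25.2 percent of all genes did), with changes from -0.57 (NDUFV1) to -0.13 (NDUFS7), and in MDA-MB-231 4 of 5 fell (25.4 percent of all genes). NDUFV1, which binds the flavin and NADH, fell by 0.57 (SE 0.0381, adjusted p = 1.16e-09) in MCF10A and by 0.52 (adjusted p = 4.86e-09) in MDA-MB-231. NDUFV2, an iron-sulfur subunit beside it, fell by 0.48 in MCF10A and changed by -0.775 in MDA-MB-231, a difference of -0.30 (adjusted p = 8.72e-05). NDUFS1, the large iron-sulfur subunit, fell by 0.23 in MCF10A (adjusted p = 2.98e-05) and stood at 0.0025 in MDA-MB-231 (adjusted p = 0.964). Its probe sets differed: the next brightest, at a mean of 8.73, gave -0.145 in MCF10A and -0.66 in MDA-MB-231 (adjusted p = 1.15e-08), and 2 dimmer ones were called higher in MCF10A. On that second probe set the difference of response was -0.515, against 0.235 on the brightest, so no order of the lines is settled for NDUFS1. These 3 core subunits were chosen for mention after their values were seen.

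In the N module, 4 of 7 accessory subunits fell and 2 rose in MCF10A, and 5 fell and 1 rose in MDA-MB-231, where of all genes 25.2 percent fell and 29 percent rose in MCF10A and 25.4 and 25.5 percent in MDA-MB-231. NDUFV3, a small accessory subunit at the tip of the arm, read 10.93, 10.9, 10.96 and 10.92 on MCF10A vehicle arrays and 9.75, 9.74, 9.74 and 9.75 after 2DG. In MDA-MB-231 it read 10.25, 10.33, 10.34 and 10.3 on vehicle and 9.35, 9.37, 9.31 and 9.41 with 2DG. Its change in MCF10A, -1.18 (SE 0.0326, adjusted p = 1.48e-14), was the lowest of the 32 subunits, and it was -0.945 (adjusted p = 4.67e-13) in MDA-MB-231, a difference of 0.24 (adjusted p = 0.000393). A dimmer probe set of its own, at a mean of 8.08, gave -0.75 and -0.58, and there the difference of 0.17 was not called (adjusted p = 0.149).

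NDUFA7, also of the N module, showed the reverse order of sizes. It read 10.76, 10.76, 10.8 and 10.77 on MCF10A vehicle arrays and 10.19, 10.24, 10.12 and 10.15 with 2DG, and in MDA-MB-231 10.64, 10.84, 10.62 and 10.66 on vehicle and 9.54, 9.59, 9.48 and 9.55 with 2DG. It fell by 0.60 in MCF10A (SE 0.0467, adjusted p = 8.18e-09) and by 1.15 in MDA-MB-231 (adjusted p = 3.1e-12), a difference of -0.55 (adjusted p = 2.62e-06). A dim second probe set, at a mean of 6.81, gave 0.31 in MCF10A and 0.185 in MDA-MB-231. NDUFS4, which helps to join the N module to the arm and whose loss causes Leigh syndrome, was chosen for mention after its values were seen. It read 11.12 to 11.24 on MCF10A vehicle arrays and 11.62 to 11.66 with 2DG, and in MDA-MB-231 11.47 to 11.51 and 11.86 to 11.99. It rose by 0.445 (adjusted p = 1.45e-08) and 0.41 (adjusted p = 5.35e-08), the largest rise of the 32 subunits in each line.

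Of the Q module's accessory subunits, NDUFA9 was not called in either line, and NDUFA5 differed between them. NDUFA5 read 11.78, 11.79, 11.95 and 11.86 on MCF10A vehicle arrays and 11.75, 11.72, 11.83 and 11.93 with 2DG, which overlap. In MDA-MB-231 it read 11.38, 11.59, 11.48 and 11.55 on vehicle and 10.87, 10.79, 10.97 and 10.9 with 2DG, which do not. The change was -0.04 (adjusted p = 0.638) in MCF10A and -0.62 (SE 0.0594, adjusted p = 1.34e-07) in MDA-MB-231, and the difference of -0.58 (adjusted p = 2.16e-05) was the largest downward one among the subunits.

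In the ND1 module, NDUFA3 read 11.27, 11.19, 11.26 and 11.28 on MCF10A vehicle arrays and 10.15, 10.21, 10.23 and 10.16 after 2DG. In MDA-MB-231 it read 11.53, 11.72, 11.56 and 11.56 on vehicle, with replicate B the highest, and 10.67, 10.68, 10.72 and 10.8 with 2DG. This accessory subunit, whose promoter with 2 NRF1 matches is shown above, changed by -1.06 (SE 0.0453, adjusted p = 3.38e-12) and -0.875 (adjusted p = 5.88e-11). The difference of 0.19 (adjusted p = 0.0244) was lost with the actin 3′ minus 5′ difference as a covariate (0.13, adjusted p = 0.102), and without MDA-MB-231 vehicle replicate A (0.17, adjusted p = 0.0538) or 2DG replicate D (0.16, adjusted p = 0.0533). NDUFA13, known as GRIM-19 and chosen for mention after its values were seen, stood at 0.06 in MCF10A (adjusted p = 0.267) and fell by 0.32 in MDA-MB-231.

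In the ND2 module, 1 of 4 measured accessory subunits fell and 1 rose in MCF10A, and 2 fell and 1 rose in MDA-MB-231. The MCF10A counts are near the shares over all genes (25.2 percent lower, 29 percent higher), and the MDA-MB-231 counts stand beside 25.4 and 25.5 percent. NDUFA11 sits in the membrane arm, where complex I meets complex III in supercomplexes. It read 12.24, 12.18, 12.23 and 12.28 on MCF10A vehicle arrays and 11.83, 11.86, 11.85 and 11.93 with 2DG, and in MDA-MB-231 12.56, 12.47, 12.56 and 12.61 on vehicle and 11.78, 11.61, 11.6 and 11.71 with 2DG. It changed by -0.365 (adjusted p = 2.68e-06) and -0.875 (SE 0.0456, adjusted p = 6.39e-11), a difference of -0.51 (adjusted p = 4.94e-06). A second bright probe set gave -0.42 and -0.83. NDUFA10, an accessory subunit chosen for mention after its values were seen, was the subunit called in opposite directions, at 0.28 in MCF10A (adjusted p = 5.2e-06) and -0.17 in MDA-MB-231 (adjusted p = 0.00092). Its probe sets gave called changes of opposite sign in MCF10A.

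In the outer membrane arm, 4 of 6 ND4 module subunits and 5 of 5 ND5 module subunits fell in MCF10A, against 25.2 percent of all genes, and 5 of 6 and 3 of 5 fell in MDA-MB-231, against 25.4 percent. NDUFB3, of the ND5 module, read 11.71, 11.75, 11.76 and 11.84 on MCF10A vehicle arrays and 10.9, 10.93, 10.9 and 10.93 with 2DG, and in MDA-MB-231 11.41 to 11.54 and 10.79 to 10.89. It changed by -0.85 in MCF10A (adjusted p = 9.71e-12) and -0.605 in MDA-MB-231 (adjusted p = 1.04e-09), a difference of 0.245 (SE 0.0557, adjusted p = 0.00155). NDUFB7, on the intermembrane face, fell by 0.27 in MCF10A (10.73 to 10.81 on vehicle, 10.46 to 10.56 with 2DG) and by 0.75 in MDA-MB-231 (11.47 to 11.58 and 10.71 to 10.81). Its difference of -0.48 (adjusted p = 7.97e-07) rests on a shared probe set; a dim one, at a mean of 6.67, gave -0.125 and 0.025 in the lines, neither called. NDUFB2 fell by 0.315 in MCF10A (adjusted p = 1.5e-07) and stood at 0.01 in MDA-MB-231 (adjusted p = 0.827).

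**Figure D4:**
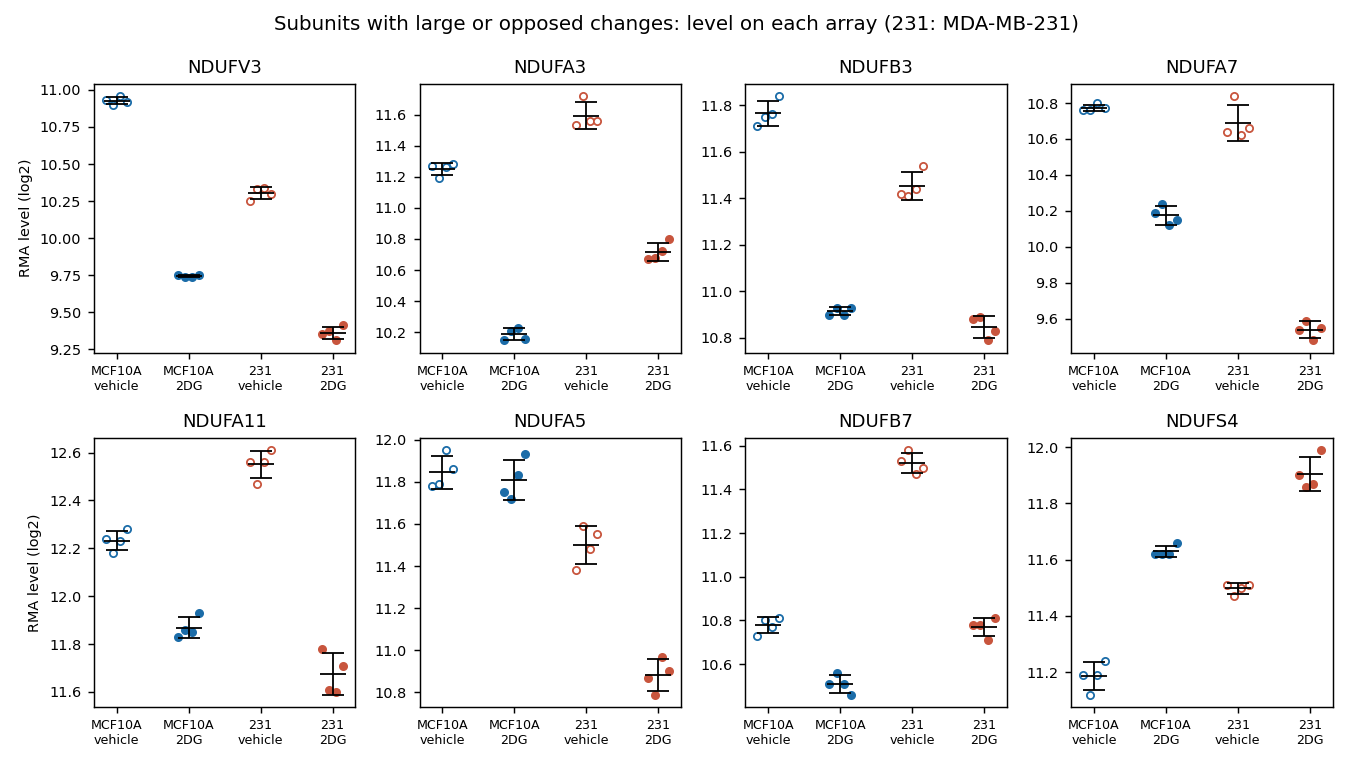
RMA level (log2) of 8 subunits on each array, by group; points are arrays and bars give the mean and SD of 4 replicates, and each panel has its own axis. NDUFV3 changes by -1.18 in MCF10A and -0.945 in MDA-MB-231, NDUFA5 drops in MDA-MB-231 while its MCF10A groups overlap, and NDUFS4 rises in both.

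Set side by side, both lines lowered a set of subunits and assembly factors in common. Lower in both lines were 18 of 32 subunits (56.2 percent) and 4 of 8 assembly factors (NDUFAF3, NDUFAF5, NDUFAF6 and NDUFAF8), against 15.9 percent of all genes. The Pearson correlation of the lines' changes across genes was 0.72 over the subunits, 0.763 over the assembly factors and 0.54 over all genes; genes are not independent replicates. The response in MDA-MB-231 minus that in MCF10A was called higher for 6 of 8 assembly factors and lower for 1 (median 0.57), and for the subunits higher for 9 and lower for 14 of 32 (median -0.07). Over all genes 22.3 percent were called higher and 23.6 percent lower (45.8 percent either way), with a median of 0.005.

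**Figure D5:**
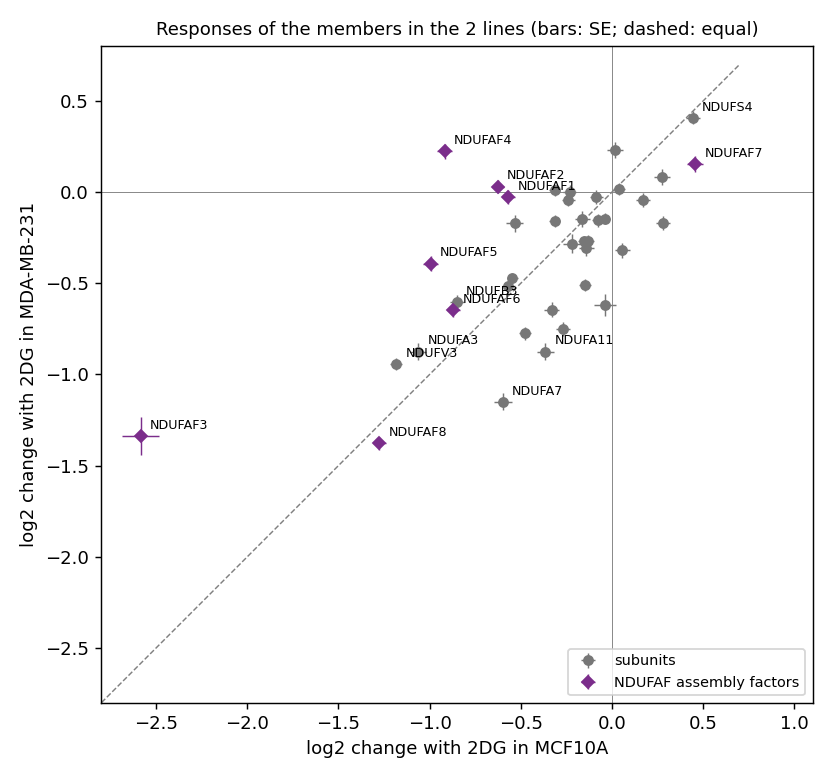
Change after 2DG (log2) in MCF10A (horizontal) against MDA-MB-231 (vertical) for each subunit and NDUFAF assembly factor, with a dashed line of equal change; bars are the SE of the fit. NDUFAF1, NDUFAF2 and NDUFAF4 lie above the line, at MDA-MB-231 changes of -0.03, 0.03 and 0.225, and NDUFA5, NDUFA7, NDUFA11 and NDUFB7 lie below it.

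On vehicle the lines differed in both directions. MDA-MB-231 was higher than MCF10A for 10 subunits and lower for 15 of 32 (median -0.08), and higher for 2 and lower for 4 of 8 assembly factors (median -0.09); of all genes 29.2 percent were higher and 26.8 percent lower (56 percent either way). NDUFB9 (13.04 to 13.08 in MCF10A, 12.13 to 12.19 in MDA-MB-231) was lower in MDA-MB-231, at -0.90 (SE 0.0318, adjusted p = 2.68e-13). NDUFB2 (12.63 to 12.69 and 11.78 to 11.81) and NDUFB10 (11.94 to 11.97 and 11.14 to 11.23) were lower too, at -0.87 (adjusted p = 3.26e-13) and -0.78 (adjusted p = 3.6e-11). After 2DG, NDUFB10 changed by -0.33 in MCF10A and -0.645 in MDA-MB-231, but a second bright probe set, at a mean of 10.45, gave -0.40 and -0.43, and its difference of -0.03 was not called (adjusted p = 0.804). NDUFB7 was higher in MDA-MB-231 by 0.74 (adjusted p = 2.11e-11) on its shared probe set. These are all accessory subunits of the outer membrane arm.

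Under 2DG the assembly factors parted further. MDA-MB-231 was higher for 6 of 8 and lower for 2 (median 0.25), with NDUFAF3 1.80 higher (adjusted p = 8.34e-11), NDUFAF2 1.06 higher and NDUFAF4 0.98 higher. For the subunits it was higher for 9 and lower for 20 of 32 (median -0.18), with NDUFB10 at -1.10. Over all genes 30.7 percent were higher and 28.8 percent lower (59.5 percent either way). This comparison shares its 2DG arrays with the response comparisons.

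The 3 noncoding RNAs included 1 that was called after 2DG. NDUFV2-AS1, transcribed antisense beside the core subunit gene NDUFV2, read 5.58, 5.41, 5.55 and 5.4 on MCF10A vehicle arrays and 6.89, 7.09, 7.02 and 6.8 with 2DG. It rose by 1.465 (SE 0.0794, adjusted p = 7.16e-11) in MCF10A, was at 0.14 (adjusted p = 0.157) in MDA-MB-231, and the difference was -1.32 (adjusted p = 4.85e-08). These values come from a dim probe set, with a mean level of 5.97. A second probe set, dimmer still at a mean of 4.03, gave 0.41 and -0.01. Both means lie under the limit of 7.2169 used in the filter on dim genes, which limits what these probe sets can show. NDUFV2 itself fell in both lines, as given above. NDUFB2-AS1 and NDUFV1-DT were not called after 2DG in either line.

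Assembly factors that do not carry the NDUFAF name were taken as a list of 12, all measured. In MCF10A 9 fell and 3 rose (median -0.63), beside 25.2 percent of all genes lower and 29 percent higher. In MDA-MB-231 8 fell and 1 rose (median -0.375), beside 25.4 and 25.5 percent. ACAD9, which works with NDUFAF1, changed by -1.94 (adjusted p = 3.87e-14) in MCF10A and -1.84 in MDA-MB-231 (adjusted p = 1.64e-13). FOXRED1 fell by 1.225 in MCF10A, and TMEM70, an assembly factor of ATP synthase and of complex I, rose by 1.225 in MDA-MB-231. Of the iron-sulfur cluster assembly list, 11 of 13 were measured: 6 fell and 1 rose in MCF10A, and 7 fell and 2 rose in MDA-MB-231, beside the same shares over all genes. BOLA3, which helps to pass clusters to target proteins, changed by -1.59 in MCF10A and -1.095 in MDA-MB-231, and the glutaredoxin GLRX5 by -0.66 and -0.75. NDUFAB1, the acyl carrier protein that is also a complex I subunit but lies outside the rule, was at -0.39 and -0.13, both called.

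Of the 40 coding members, 24 have further probe sets that name them alone. These gave a called change of opposite sign to the probe set used for 7 members in MCF10A (NDUFA10, NDUFA2, NDUFA7, NDUFAF7, NDUFB6, NDUFB8 and NDUFS1) and for 4 in MDA-MB-231 (NDUFAF4, NDUFAF7, NDUFB1 and NDUFB6). RefSeq names a pseudogene after 19 of the 40, among them NDUFA5 and NDUFB4 with 12 each, and probes may not separate such copies. What lies behind the disagreements between probe sets was not tested.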

How the data were processed

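Total RNA from 16 cultures was labelled with a 3′ kit, per the labels' protocols, and hybridised to 16 arrays. The authors deposited 1 log2 value per probe set, made with RMA per the submitters' processing notes (a method that corrects background, normalizes between arrays and summarises probes); the version and the probe annotation behind it are not given in the sources used here. RMA values carry no detection call, so no level was called absent. Of 54675 probe sets, 41097 name 1 gene in the platform annotation, and 41043 were found by symbol or identifier in RefSeq's table (GRCh38.p14). The brightest probe set stood for each of 19775 genes. The 4 group means came from limma 3.58.1, run in R 4.3.3 with lmFit, contrasts and eBayes (12 residual degrees of freedom per gene), with Benjamini-Hochberg adjustment over all genes and calls at 0.05. The script was tested on simulated data for the 2DG response in MCF10A, with 50 genes changed at each size. It recovered 28 of 50 changes of 0.25, 46 of 50 of 0.5, and all 50 of 1 and of 2. There were 7 false calls. Far fewer genes changed in the simulation than were called in the data, so these shares need not hold here.

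The members and lists were chosen with earlier results of these data known. Values on every array, or their range, are given for all NDUFAF genes, for the 4 called subunits with the largest change in each line among those whose groups do not overlap, and for the 4 with the largest difference of response and of lines on vehicle; genes named beyond this are marked as chosen after their values were seen, or named in a count. Of each list of other genes, the 2 called with the largest change in each line are named. The replicate letters A to D were not used to pair the samples. Over 24 pairs of groups' same-lettered arrays, the correlation of deviations lay between -0.0992 and 0.0877. Between vehicle and 2DG it was 0.0401 to 0.0877 in MCF10A and -0.0992 to 0.0194 in MDA-MB-231. Arrays of different letters were not compared, so a weak pairing cannot be told from none. No 2 arrays held identical values. Alternatives were other probe set rules, a trended robust fit, 8-array fits, a replicate block, centred arrays, a filter on dim genes, the actin ratio as a covariate, and each array left out.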

Additional observations from a re-analysis of the deposited data

Results flagged for a closer look

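On MDA-MB-231 vehicle replicate B, NDUFA3 read 11.72 against 11.53 to 11.56 on the other 3 arrays of its group, a gap of 0.842 of the group's range. This was 1 of 72 groups of 4 examined, and chance marks about 1 in 20. The same array had the high actin 3′ minus 5′ difference of 1.09, whose part in it was not tested.

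The response to 2DG differed between the lines, by limma's interaction contrast (MDA-MB-231 minus MCF10A), for 7 of the 8 assembly factors. The difference was 0.54 for NDUFAF1, 0.655 for NDUFAF2, 1.2475 for NDUFAF3, 1.1425 for NDUFAF4, 0.6025 for NDUFAF5, 0.2225 for NDUFAF6 and -0.305 for NDUFAF7. Dimmer probe sets gave the opposite sign for NDUFAF6 (-0.3075, adjusted p = 0.154) and NDUFAF7 (0.3625, adjusted p = 0.0107, and 0.0475, not called). No order of the lines is thus settled for these genes. For the subunits described, it was 0.2375 for NDUFV3, 0.1875 for NDUFA3, 0.245 for NDUFB3, 0.155 for NDUFB9 and 0.325 for NDUFB2, which fell less in MDA-MB-231 or, for NDUFB2, were not called there. It was -0.5525 for NDUFA7, -0.51 for NDUFA11, -0.58 for NDUFA5, -0.4825 for NDUFB7 and -0.315 for NDUFB10, on the probe sets used. On a second bright probe set the difference for NDUFB10 was -0.0275 (adjusted p = 0.804), and on probe sets that are not shared those for NDUFV3 (0.1725, adjusted p = 0.149) and NDUFB7 (0.15) were not called. The call for NDUFA3 was lost with the actin covariate (adjusted p = 0.102). It was also lost without MDA-MB-231 vehicle replicate A or 2DG replicate D. The medium also differed between the lines, so line and medium cannot be told apart.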

How the results depend on the processing

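Of the 40 coding members, 33 were called after 2DG in MCF10A and 31 in MDA-MB-231, 30 for the difference of response, 31 between lines on vehicle and 37 under 2DG. The main fit did not pair the samples by letter. With the replicate block 33 were called in MCF10A, and the block changed no call's side or direction for the members given on every array. Without shared probe sets 31 members remained to be tested, and 17, 18 and 24 were called for the difference, the lines on vehicle and the lines under 2DG; the median change was then -0.1475 for subunits in MCF10A, -0.185 for subunits and -0.095 for assembly factors in MDA-MB-231. With the mean of all probe sets the medians were -0.1525 and -0.6725 (subunits and assembly factors, MCF10A) and -0.2044 and -0.3121 (MDA-MB-231). With arrays centred the subunit median in MCF10A was -0.2275, and leaving out 1 array at a time it ran from -0.2058 to -0.1729.

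Some members changed sign with the probe set. With the mean of all probe sets, NDUFAF7 gave -0.345 in MCF10A, -0.31 in MDA-MB-231 and 0.035 for the difference, NDUFA5 gave 0.205 in MCF10A, NDUFB2 -0.1083 in MDA-MB-231, and NDUFAF6 -0.0425 for the difference. Without shared probe sets, NDUFA11 gave 0.0475 in MCF10A, and NDUFB7 gave 0.025 in MDA-MB-231, 0.15 for the difference and -0.045 between lines on vehicle. The probe sets that replace those of NDUFA11, NDUFB7 and NDUFAF8 are dim, which limits what they can show; NDUFAF8 was at -0.12 and -0.095, not called, and the difference for NDUFV3 was lost (0.1725). With the actin covariate the lines no longer differed by a call on vehicle for NDUFAF7 (adjusted p = 0.0613), and the differences of response of NDUFA3 and NDUFS7 (adjusted p = 0.0779) lost theirs. The cause of these changes was not tested.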

Other observations

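Complex II, succinate dehydrogenase, feeds electrons from succinate into the same ubiquinone pool and was set beside complex I as a list of 8 genes, of which 7 were measured. In each line 3 fell and 2 rose, beside 25.2 percent of all genes lower and 29 percent higher in MCF10A and 25.4 and 25.5 percent in MDA-MB-231, and the median change was 0.05 in MCF10A and -0.005 in MDA-MB-231. The largest changes were in its assembly factors: SDHAF3 fell by 1.74 in MCF10A and 1.28 in MDA-MB-231, and SDHAF4 fell by 1.215 and 1.93. SDHAF4 went from 8.075 to 6.86 in MCF10A and from 7.245 to 5.31 in MDA-MB-231. After 2DG it thus lay under the limit of 7.2169 used in the filter on dim genes.

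Of 11 regulators of mitochondrial biogenesis, 8 fell and 2 rose in each line, beside the same shares over all genes. TFB1M, which modifies mitochondrial ribosomal RNA, fell by 1.70 in MCF10A (adjusted p = 2.96e-14), and the coactivator PPARGC1A rose by 1.68 there, from 4.84 to 6.52. In MDA-MB-231 the related coactivator PPARGC1B fell by 1.62, from 6.97 to 5.35, and GABPA, the ETS subunit of GABP, fell by 1.00 (adjusted p = 4.52e-12). The levels given for PPARGC1A and PPARGC1B lie under the limit of 7.2169 used in the filter on dim genes, which limits what they can show. COXFA4, the former NDUFA4, a subunit of complex IV, was at -0.10 in MCF10A (adjusted p = 0.0801) and 0.16 in MDA-MB-231 (adjusted p = 0.00578).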
